A study of Homo sapiens with 16 samples.

Results

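Neutrophil granule protein genes were followed through 16 mRNA sequencing libraries of 8 human blood cancer cell lines. The genes were MPO, AZU1, PRTN3, ELANE, CTSG, CFD, LYZ, RNASE2, RNASE3 and SRGN, chosen by symbol as genes of primary granule proteases and related granule proteins, 10 of the 23230 gene symbols counted in each library. Each line was sampled once with the peptide Y518R, which binds DPY30 per the labels, and once with the peptide 3R, which does not bind it and is the control. DPY30 belongs to the core of the SET1/MLL enzyme complexes, which methylate lysine 4 of histone H3. Per the labels, THP1 and MOLM13 are leukemia lines with an MLL-AF9 fusion, RS4-11 carries MLL-AF4 and KOPN8 carries MLL-ENL. K562 is labelled as BCR-ABL leukemia, RAJI as Burkitt's lymphoma, P493-6 as a model of Burkitt's lymphoma and JURKAT as a T cell leukemia that depends on Myc. Every library, with either peptide, came from a line grown in Advanced RPMI with 2.5% fetal bovine serum. Neither the peptide dose nor the exposure time is stated in the sources used here. Each line is a single established cell line, and nothing in the labels says that the 2 libraries of a line came from separately handled cultures beyond the peptide.

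Primary (azurophil) granules are the first storage granules that a developing neutrophil fills, mostly at the promyelocyte stage. They hold myeloperoxidase, which makes hypochlorous acid, and serine proteases that digest microbial proteins after fusion with a phagosome. The proteoglycan serglycin packs these cationic proteins, and transcription of the genes is known to depend on C/EBP factors, PU.1 and MYB. Monocyte precursors share much of the same programme, and its genes are switched off again as cells mature.

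Upstream sequences are shown for CTSG, PRTN3, RNASE2 and AZU1, which were at least 2-fold lower with Y518R in THP1 and have an entry in the table used, and for RNASE3, the paralog of RNASE2, so that neighbours and paralogs can be compared. They are 250 bases ending at the transcription start, 5′ to 3′, from RefSeq on GRCh38.p14. Capitals mark matches, on either strand, to a C/EBP word (TTNNGNAA), a PU.1 word (GAGGAAG) or a MYB word (AACNG).
AZU1 (chr19:827587-827836, plus strand): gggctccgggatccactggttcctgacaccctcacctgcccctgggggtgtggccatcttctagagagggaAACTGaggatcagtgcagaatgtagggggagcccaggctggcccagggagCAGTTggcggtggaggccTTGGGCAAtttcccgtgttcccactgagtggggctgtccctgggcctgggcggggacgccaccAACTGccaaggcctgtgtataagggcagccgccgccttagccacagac
PRTN3 (chr19:840749-840998, plus strand): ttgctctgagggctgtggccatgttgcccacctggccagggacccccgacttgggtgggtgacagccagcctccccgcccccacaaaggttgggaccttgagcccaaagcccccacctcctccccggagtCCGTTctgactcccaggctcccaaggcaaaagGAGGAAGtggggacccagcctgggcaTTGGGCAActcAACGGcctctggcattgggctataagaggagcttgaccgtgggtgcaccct
CTSG (chr14:24576251-24576500, minus strand): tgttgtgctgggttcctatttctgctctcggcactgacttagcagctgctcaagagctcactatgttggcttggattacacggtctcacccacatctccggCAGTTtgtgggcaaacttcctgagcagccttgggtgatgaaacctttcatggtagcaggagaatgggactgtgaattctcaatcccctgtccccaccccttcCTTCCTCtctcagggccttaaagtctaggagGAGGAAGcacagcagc
RNASE2 (chr14:20955237-20955486, plus strand): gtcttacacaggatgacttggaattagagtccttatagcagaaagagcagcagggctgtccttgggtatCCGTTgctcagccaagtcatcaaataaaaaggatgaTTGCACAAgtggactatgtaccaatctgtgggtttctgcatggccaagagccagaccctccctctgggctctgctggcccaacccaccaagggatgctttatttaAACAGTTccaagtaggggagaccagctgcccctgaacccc
RNASE3 (chr14:20891135-20891384, plus strand): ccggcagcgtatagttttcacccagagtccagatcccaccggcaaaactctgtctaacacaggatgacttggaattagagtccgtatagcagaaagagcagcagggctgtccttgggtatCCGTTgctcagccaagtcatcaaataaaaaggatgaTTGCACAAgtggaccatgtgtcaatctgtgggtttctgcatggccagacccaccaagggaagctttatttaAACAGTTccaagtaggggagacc

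AZU1 and PRTN3, neighbours on chromosome 19, shared the same C/EBP match, TTGGGCAA, at 111 to 104 bases before the start in AZU1 and at 62 to 55 in PRTN3. PRTN3 also had a PU.1 match at 88 to 82 bases before the start, and CTSG had 2 of them, at 47 to 41 and at 16 to 10. RNASE2 and RNASE3 carried the same C/EBP match, TTGCACAA, at 145 to 138 and at 94 to 87 bases before the start, and their upstream sequences were identical at 192 of 199 aligned bases (96.5%). In both of these genes a pair of MYB matches overlapped each other. CFD, the sixth gene with a sequence in the table, held none of the 3 words in its 250 bases. Such words are common. Of 35116 promoter windows of this length, 33.2% held the C/EBP word, 11.2% the PU.1 word and 70.6% the MYB word, and a match is a description of letters only. Sequences of MPO, ELANE, LYZ and SRGN were not used here.

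Libraries held 19354300 to 43003124 gene counts, so that a count of 0 allows up to 3 counts, or 0.0696 to 0.157 CPM, the reads of a gene per 1000000 gene counts of its library. All CPM carry the TMM scaling, a factor that removes differences in overall composition between libraries. Reads given to no gene were 17.7% to 26.9% in 15 libraries and 44.7% in RAJI 3R. Markers of blood cell types separated the lines, although most labels name a fusion rather than a cell type. Of 8 B cell markers, 7 or 8 were at 10 CPM or more in RS4-11, KOPN8, RAJI and P493-6, all 8 T cell markers were in JURKAT and all 8 erythroid markers were in K562. Of 18 monocyte and macrophage markers, 15 and 13 were at 10 CPM or more in THP1 (Y518R and 3R) and 10 in each MOLM13 library. Of 8 neutrophil surface markers, 3 were at 10 CPM or more in each THP1 library (ANPEP, at 391 CPM with Y518R and 454 CPM with 3R, CXCR2, at 22.5 and 29.5 CPM, and CSF3R) and CSF3R alone in each MOLM13 library. FCGR3B, a receptor of circulating neutrophils, had 0 counts in all 4 libraries. Of 14 specific and gelatinase granule genes, 2 were at 10 CPM or more in each of the 4 libraries, and LCN2, OLFM4, CEACAM8 and CRISP3 had 0 counts in all 4.

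The granule genes were mostly transcripts of THP1 and MOLM13. The 10 genes together took 0.572% of all gene counts in THP1 Y518R, 1.19% in THP1 3R, 0.431% in MOLM13 Y518R and 0.380% in MOLM13 3R, against 0.00105% to 0.0253% in the 12 libraries of the other lines. For every gene the lowest of the 4 MLL-AF9 libraries was above the highest of the other 12. The genes were chosen for this pattern, so the levels across lines are a description without a test. All 10 had at least 125 counts in each MLL-AF9 library. In bulk RNA, fewer cells that express a gene and less RNA per cell cannot be told apart, here and in every comparison that follows.

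**Figure D1:**
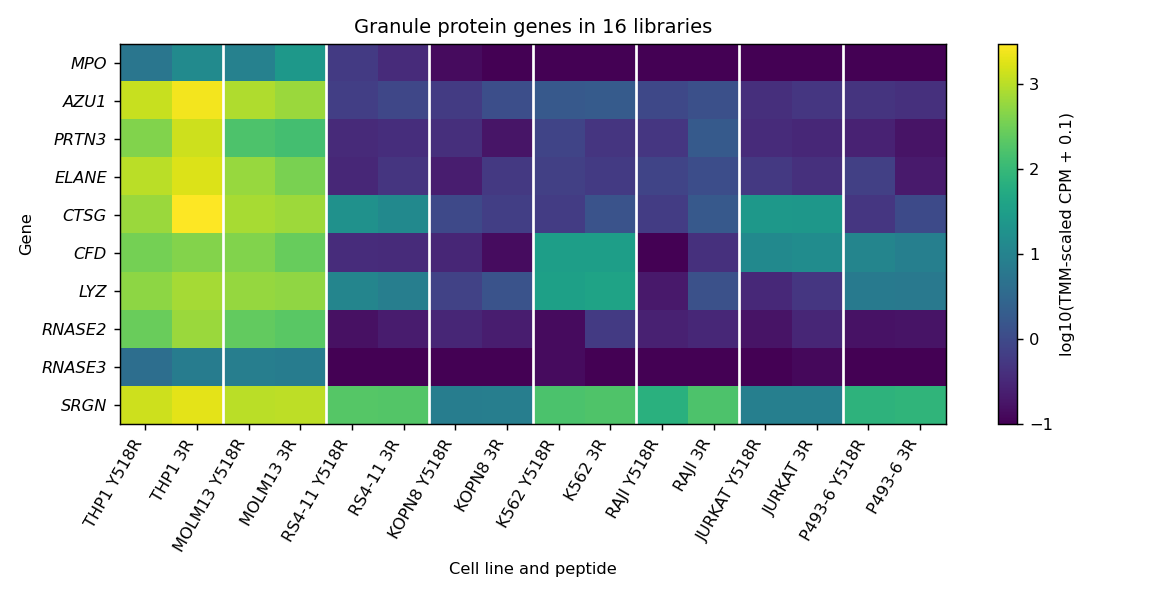
Level of each of the 10 genes (rows) in each of the 16 libraries (columns, Y518R left of 3R within a line), coloured by log10 of TMM-scaled CPM + 0.1. The 4 THP1 and MOLM13 columns are bright for nearly all genes, while MPO and RNASE3 are dim even there, and CTSG, CFD, LYZ and SRGN are also seen in some of the other lines.

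MPO, the peroxidase, was a minor transcript. It was at 5.68 CPM in THP1 Y518R, 13.6 CPM in THP1 3R, 9.33 CPM in MOLM13 Y518R and 23.9 CPM in MOLM13 3R. Both lines thus gave less with Y518R, and the ranges of the lines overlapped. Outside them RS4-11 had 16 counts with Y518R and 11 with 3R, and the 10 other libraries had 0 or 1.

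Among the serine proteases and their inactive homologue, AZU1 encodes azurocidin, an antimicrobial protein without protease activity. It had 1230 CPM in THP1 Y518R, 2476 CPM in THP1 3R, 865 CPM in MOLM13 Y518R and 645 CPM in MOLM13 3R. PRTN3, which encodes proteinase 3, was at 427 CPM in THP1 Y518R, 1368 CPM in THP1 3R, 166 CPM in MOLM13 Y518R and 137 CPM in MOLM13 3R. ELANE, neutrophil elastase, was at 1014 CPM in THP1 Y518R, 1742 CPM in THP1 3R, 600 CPM in MOLM13 Y518R and 380 CPM in MOLM13 3R. For these 3 genes both THP1 libraries lay above both MOLM13 libraries, whatever the peptide. The 12 other libraries stayed at or below 1.85 CPM for AZU1, 1.72 CPM for PRTN3 and 1.04 CPM for ELANE, so the lowest MLL-AF9 library was 349-fold, 79.8-fold and 364-fold above the highest of them.

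CTSG encodes cathepsin G, a protease with chymotrypsin-like specificity that also sits in mast cells. It was at 623 CPM in THP1 Y518R, 2982 CPM in THP1 3R, 784 CPM in MOLM13 Y518R and 650 CPM in MOLM13 3R. The lines overlapped, because THP1 held both the highest library and the lowest. CTSG was also present in 2 lymphoid lines. JURKAT had 24.5 CPM with Y518R and 23.6 CPM with 3R, and RS4-11 had 18.0 CPM with Y518R and 13.2 CPM with 3R. These were 657, 962, 592 and 570 counts, while the remaining 4 lines had 10 to 32 counts per library.

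CFD encodes complement factor D, the serine protease that cleaves factor B in the alternative pathway. It was at 353 CPM in THP1 Y518R, 447 CPM in THP1 3R, 424 CPM in MOLM13 Y518R and 277 CPM in MOLM13 3R, with overlapping lines. K562 had 31.8 CPM with Y518R and 32.2 CPM with 3R, JURKAT 13.2 and 15.1 CPM, and P493-6 11.0 and 8.35 CPM, in the same order of peptides. LYZ, lysozyme, which cuts bacterial peptidoglycan, showed the least spread in the MLL-AF9 lines, at 519 CPM in THP1 Y518R, 747 CPM in THP1 3R, 586 CPM in MOLM13 Y518R and 543 CPM in MOLM13 3R. K562 came next for LYZ, at 35.1 CPM with Y518R and 40.1 CPM with 3R. An antisense gene overlaps 599 exon bases of LYZ in GENCODE 29, and since no source used here states whether counting used strand, part of the LYZ counts may be from it.

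RNASE2 encodes the eosinophil-derived neurotoxin and RNASE3 the eosinophil cationic protein, paralogous ribonucleases of granules. RNASE2 was at 285 CPM in THP1 Y518R, 642 CPM in THP1 3R, 251 CPM in MOLM13 Y518R and 212 CPM in MOLM13 3R. RNASE3 was at 4.06 CPM in THP1 Y518R, 7.61 CPM in THP1 3R, 7.96 CPM in MOLM13 Y518R and 7.51 CPM in MOLM13 3R. Outside these lines there were at most 11 counts of RNASE2 and 1 count of RNASE3 in any of the 12 other libraries. RNASE3 counts were 1.43% of RNASE2 counts in THP1 Y518R, 1.19% in THP1 3R, 3.17% in MOLM13 Y518R and 3.54% in MOLM13 3R. Their longest coding transcripts are 88.9% identical (640 of 720 aligned bases), and 21 of the 671 windows of 50 bases in RNASE3 occur unchanged in RNASE2. The low RNASE3 values are therefore uncertain, because reads of the paralog could be given to it.

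SRGN, the core protein of serglycin, was detected at 7.78 CPM or more in every library of the 8 lines. It was at 1367 CPM in THP1 Y518R, 1958 CPM in THP1 3R, 1040 CPM in MOLM13 Y518R and 1081 CPM in MOLM13 3R. RS4-11 followed with 196 CPM with Y518R and 187 CPM with 3R, and K562 with 160 and 173 CPM in the same order. RAJI had 68.8 CPM with Y518R and 166 CPM with 3R, which overlapped K562, and P493-6 had 76.5 and 83.3 CPM. JURKAT (8.45 CPM with Y518R and 8.41 CPM with 3R) and KOPN8 (7.78 and 8.19 CPM) were lowest. SRGN thus separated the lines by steps rather than by presence or absence, and its lowest MLL-AF9 library was 5.30-fold above its highest other library.

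Levels of different genes were compared per kilobase of exon, using exon lengths of GENCODE 29. On that scale SRGN made up 24.4% of the summed level of the 10 genes in THP1 Y518R, 16.5% in THP1 3R, 23.3% in MOLM13 Y518R and 29.1% in MOLM13 3R. CTSG made up 9.88% of the sum in THP1 Y518R and 22.4% in THP1 3R, so that the leading gene of THP1 3R had rank 4 in THP1 Y518R. In MOLM13 its share was 15.6% with either peptide. ELANE made up 21.5% of the sum in THP1 Y518R, 17.5% in THP1 3R, 15.9% in MOLM13 Y518R and 12.2% in MOLM13 3R. MPO was the lowest of the 10 genes per kilobase in all 4 libraries, below RNASE3.

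**Figure D2:**
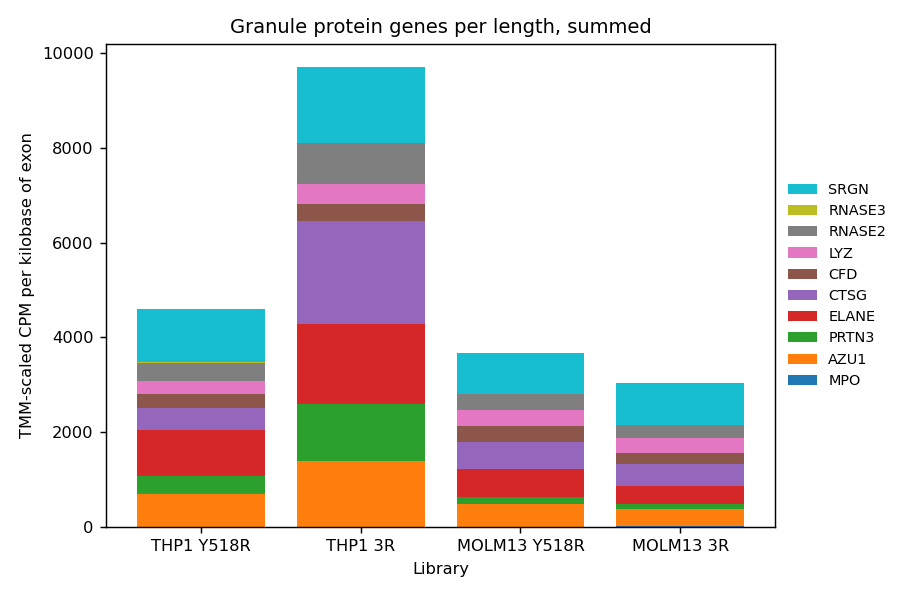
Stacked level per kilobase of exon (TMM-scaled CPM per kilobase) of the 10 genes in the 4 MLL-AF9 libraries, 1 library per bar and Y518R left of 3R in each line. The THP1 3R bar is the tallest and its CTSG band, at 22.4% of the bar, is the widest, against 9.88% in THP1 Y518R, while the 2 MOLM13 bars are divided much alike.

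The first question was whether the DPY30-binding peptide changed granule gene expression where it is high. In THP1 all 10 genes were lower with Y518R. In MOLM13 MPO was lower as well, but 8 of the 10 genes were slightly higher. A single library per peptide and line allows no test, so the ratios below carry only exact 95% counting intervals. Reads are not independent molecules, so these intervals cover counting error alone.

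**Figure D3:**
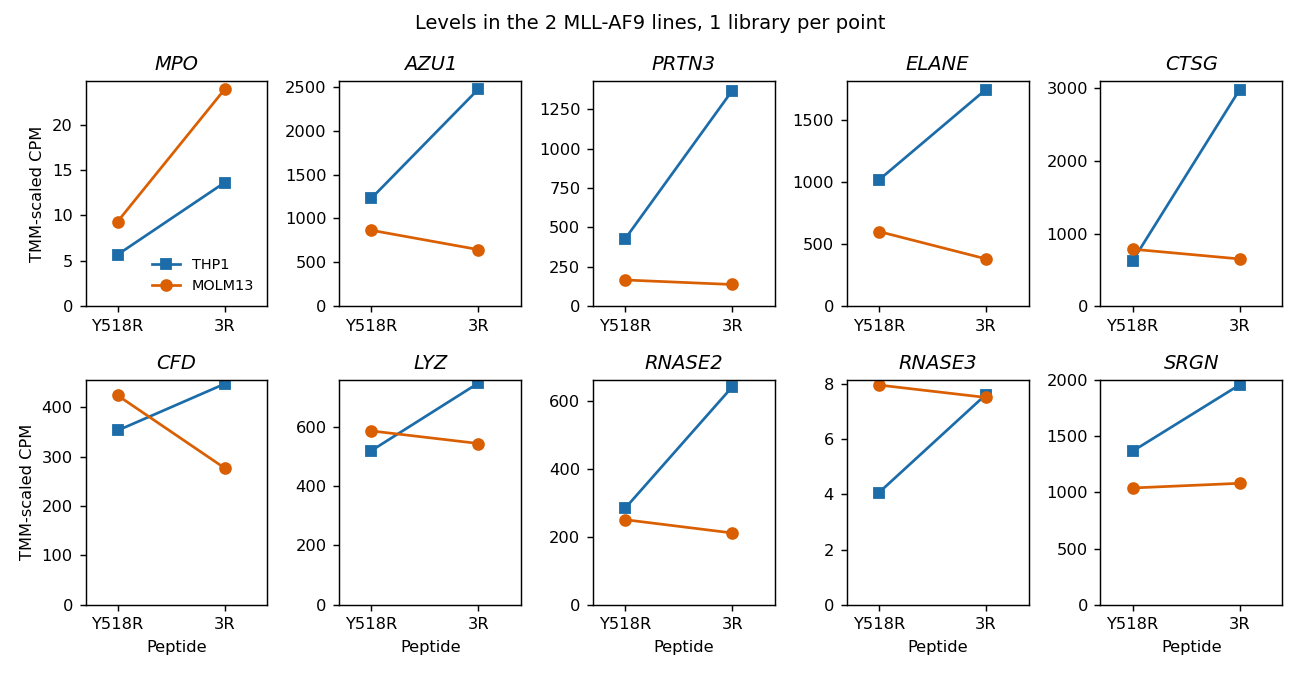
TMM-scaled CPM of each gene with Y518R (left) and 3R (right) in THP1 (squares) and MOLM13 (circles), 1 library per point, each panel with its own axis starting at 0. Every THP1 line climbs toward 3R, and the MOLM13 lines are level or slope the other way except for MPO, at 9.33 CPM with Y518R and 23.9 CPM with 3R.

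CTSG showed the largest difference in THP1, 4.79-fold lower with Y518R (interval 4.71 to 4.86; log2 ratio −2.26). PRTN3 was 3.20-fold lower (3.14 to 3.27; −1.68). MPO was 2.40-fold lower in THP1 (2.01 to 2.88; −1.25). RNASE2, at 2.26-fold lower (2.20 to 2.31; −1.17), and AZU1, at 2.01-fold lower (1.99 to 2.04; −1.01), followed. Of the 10 genes, 8 were at 10 CPM or more in THP1 by the geometric mean of its libraries, which the ratio itself does not set, and MPO and RNASE3 were below. Of these 8 genes 4 were at least 2-fold lower with Y518R. Over all genes at that level, 0.611% were at least 2-fold lower (58 of 9496) and 1.63% at least 2-fold higher. The median log2 ratio was −0.89 for these 8 genes and 0.0051 for all. AZU1 lay at the threshold, and its log2 ratio was −0.98 when CPM were taken from library totals.

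The remaining genes differed less in THP1. RNASE3, below 10 CPM in both libraries, had a log2 ratio of −0.90 on 125 counts with Y518R and 244 with 3R. ELANE was 1.72-fold lower (interval 1.69 to 1.74). LYZ was 1.44-fold lower (1.41 to 1.47), SRGN 1.43-fold lower (1.41 to 1.45) and CFD 1.27-fold lower (1.24 to 1.3). The spread over the 10 genes was thus from 1.27-fold to 4.79-fold, with the proteases CTSG and PRTN3 at one end and CFD, also a serine protease, at the other.

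In MOLM13 MPO was 2.56-fold lower with Y518R (interval 2.18 to 3.03; log2 ratio −1.35), close to its THP1 value. ELANE was 1.58-fold higher (1.54 to 1.62) and CFD 1.53-fold higher (1.48 to 1.58). AZU1 was 1.34-fold higher (1.31 to 1.37), PRTN3 1.21-fold (1.15 to 1.27), CTSG 1.21-fold (1.18 to 1.23), RNASE2 1.18-fold (1.14 to 1.23) and LYZ 1.08-fold (1.05 to 1.10). RNASE3 had an interval that included 1, and SRGN was 1.04-fold lower (1.02 to 1.06). Of the 9 genes at a geometric mean of 10 CPM or more, MPO alone was at least 2-fold lower, with 9.33 CPM in the lower of its libraries, and 0 were at least 2-fold higher. Over all genes at that level the shares were 0.192% and 0.33% (18 and 31 of 9394). The median log2 ratio of the 9 genes was 0.27.

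MPO was therefore the one gene of the 10 at least 2-fold lower with Y518R in both MLL-AF9 lines. Leaving MPO and SRGN aside, each of the other 8 genes had ratios of opposite sign in THP1 and MOLM13. For 7 of them both counting intervals excluded 1 with TMM scaling. The difference between the lines ranged over these 7 genes from −0.63 (LYZ) to −2.53 (CTSG) as THP1 minus MOLM13 on the log2 scale. With 1 pair of libraries per line, that difference was not tested.

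The other lines gave few counts to compare. CTSG in RS4-11 had a log2 ratio of 0.45 (592 counts with Y518R and 570 with 3R) and in JURKAT of 0.05 (657 and 962 counts). CFD was at −0.02 in K562, −0.19 in JURKAT and 0.39 in P493-6, and LYZ at −0.19 in K562, 0.42 in RS4-11 and 0.10 in P493-6. SRGN lay between −0.12 and 0.07 in RS4-11, KOPN8, K562, JURKAT and P493-6, but had a log2 ratio of −1.27 in RAJI, on 1325 counts with Y518R and 3175 with 3R. RAJI 3R is the library with 44.7% of reads given to no gene, and the part of that in the SRGN value was not tested. The other ratios in these lines rest on 50 counts or fewer in each library.

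**Figure D4:**
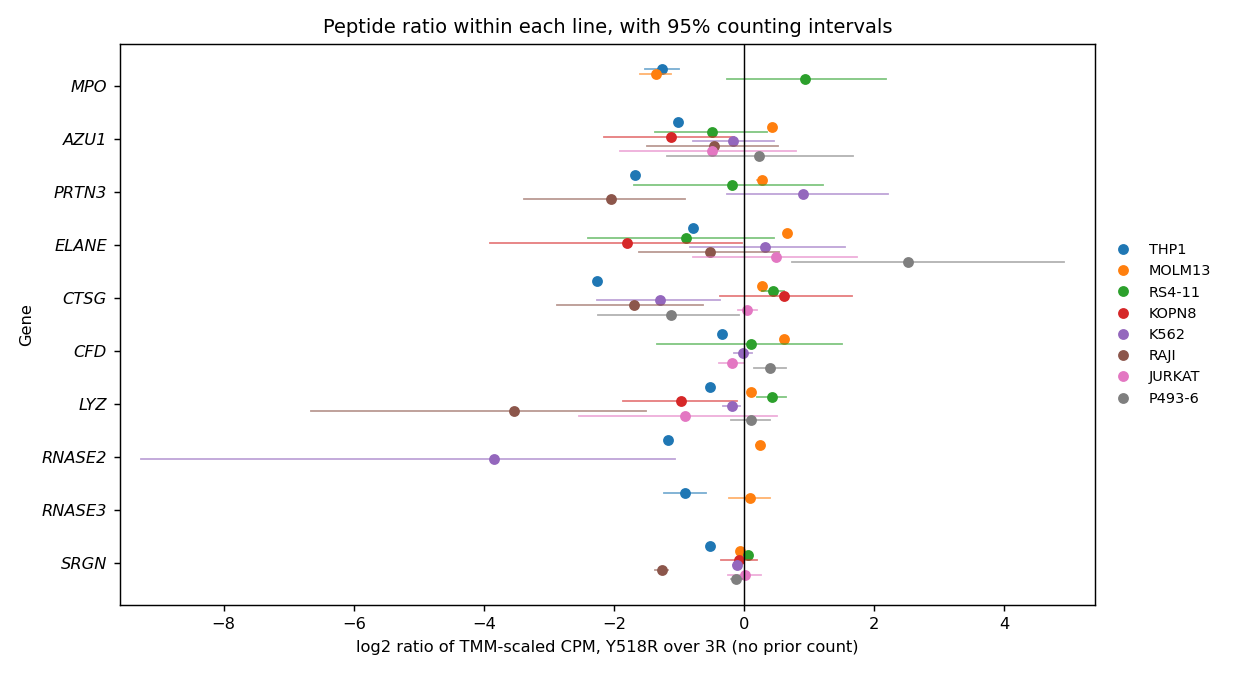
Log2 ratio of TMM-scaled CPM, Y518R over 3R, of each gene in each line with at least 10 counts in either library, drawn without a prior count, with exact 95% counting intervals as bars. THP1 lies left of 0 for all 10 genes, down to −2.26 for CTSG, MOLM13 lies right of 0 except for MPO and SRGN, and the wide bars of other lines come from genes with few counts.

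With lines as replicates, edgeR's quasi-likelihood test was used to ask whether the peptide changed the genes over both MLL-AF9 lines, with line as a block, the spread shared with the other lines and p-values adjusted over 16586 genes (calls at an adjusted p under 0.05). It called 0 of the 10 genes, while 0.561% of all genes were called (93, with 0.35% higher and 0.211% lower). At an unadjusted p under 0.05 there were 4 of the 10 and 1584 genes in all. MPO had a log2 change of −1.31 ± 0.40 (SE; lower in 2 of 2 lines; edgeR adjusted p = 0.222). CTSG had −0.997 ± 0.37 (1 of 2 lines lower; adjusted p = 0.326), PRTN3 −0.72 ± 0.29 (1 of 2; adjusted p = 0.390) and RNASE2 −0.47 ± 0.22 (1 of 2; adjusted p = 0.499). Of the 10 genes 9 had an estimate below 0, with a median of −0.35, whereas 50.02% of all genes lay above 0. CFD alone had an estimate above 0, 0.14 ± 0.19, and the estimate of ELANE was −0.06 ± 0.23, where the values of the 2 lines nearly cancelled.

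**Figure D5:**
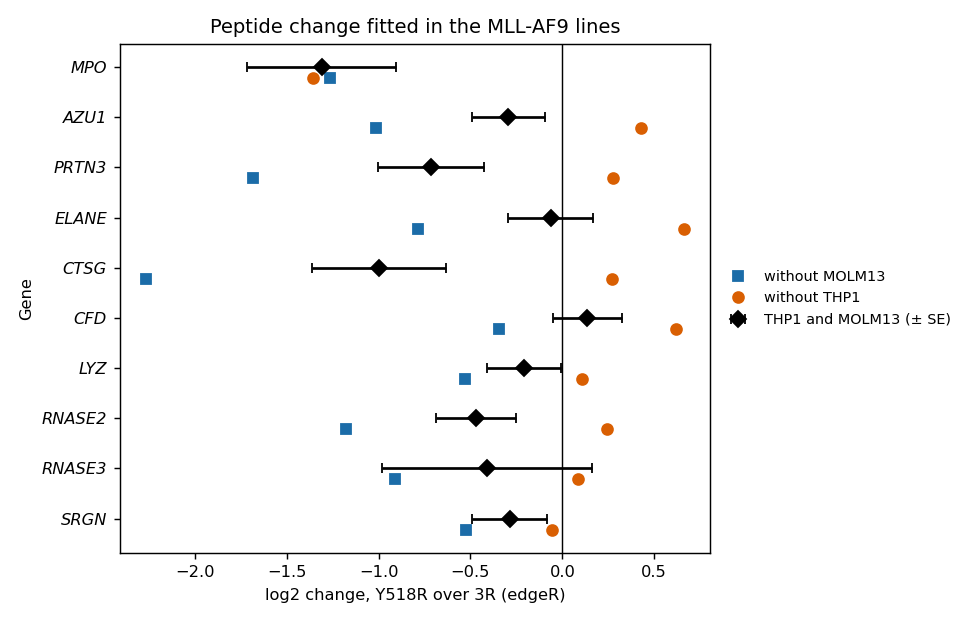
Fitted log2 change, Y518R over 3R, of each gene in the MLL-AF9 lines (diamonds, ± SE; edgeR, 2 lines), with the value when MOLM13 (squares) or THP1 (circles) is left out. The squares lie left of 0 for all 10 genes and the circles right of 0 for 8 of 10, and only MPO has all 3 marks together, between −1.36 and −1.27.

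That estimate depended on which line was in the fit. Without MOLM13 or without THP1 the estimate rested on 1 library per peptide, so only the size of the change is given. Without MOLM13 it was −2.26 for CTSG, −1.68 for PRTN3, −1.18 for RNASE2, −1.01 for AZU1 and −0.78 for ELANE. Without THP1 it was 0.66 for ELANE and 0.62 for CFD. MPO was at −1.27 without MOLM13 and −1.36 without THP1. Other settings of the 2-line fit moved calls. With no filter on low counts edgeR called CTSG (adjusted p = 0.00297) and PRTN3 (0.0214) and 1.4% of all genes. Limma-voom called MPO (adjusted p = 0.00705) and 1.1% of all genes.

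Over all 8 lines edgeR called 0 of the 10 genes (adjusted p = 1 for each), and 0.00603% of all genes (1 of 16586). RNASE2 had −0.52 ± 0.22, SRGN −0.27 ± 0.11 and PRTN3 −0.59 ± 0.28, the 3 of the 10 at an unadjusted p under 0.05, where there were 472 genes in all. Each leaned on 1 line. Without THP1 the estimate was −0.034 for RNASE2 and 0.10 for PRTN3, and without RAJI it was −0.12 for SRGN. The difference of the peptide change between the MLL-AF9 lines and the 6 other lines was called for 0 of the 10 genes (lowest adjusted p = 0.522, for MPO, edgeR), against 0.32% of all genes. Without MOLM13, where only the THP1 pair was left, this difference was −2.30 for CTSG and −1.54 for PRTN3. The 4 MLL-fusion lines gave 0 of 10 as well (lowest adjusted p = 0.915), against 0% of all genes. Their difference from the 4 lines without a fusion also gave 0 of 10 (lowest adjusted p = 1), against 0% of all genes. Without MOLM13, AZU1 was called in the MLL-fusion fit (−0.96, edgeR adjusted p = 0.00249), when 0.0548% of all genes were called. Nearly all AZU1 counts of that fit were from THP1, 37886 with Y518R and 79385 with 3R (log2 ratio −1.01). No RS4-11 library held more than 35 (−0.44), and no KOPN8 library more than 26 (−1.03). The AZU1 call thus leaned on 1 line with 1 library per peptide. In the 4 lines without a fusion and in the 6 lines without MLL-AF9, edgeR called 0 of 10 (adjusted p = 1), against 0.00603% in each. Some of the 10 had too few counts there for a call, which also limits the differences between classes of lines. Outside the MLL-AF9 lines a library held at most 1 count of RNASE3, 11 of RNASE2 and 16 of MPO. MPO had 0 counts in every library of K562, RAJI, JURKAT and P493-6.

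The second question was how THP1 and MOLM13 differed from each other, whatever the peptide. Here 6 of the 10 genes were called, and 57% of all genes were called between these lines, so the number called in either direction was near the background. All 6 were higher in THP1, against 31.9% of all genes, and 0 were lower, against 25.1%. That split by direction was not tested. The median log2 difference was 0.75 for the 10 genes and 0.08 for all genes. PRTN3 had the largest log2 difference, 2.38 ± 0.32 (SE; edgeR adjusted p = 4.57e-06), followed by ELANE at 1.48 ± 0.25 (adjusted p = 5.48e-05) and AZU1 at 1.21 ± 0.21 (7.24e-05). CTSG was at 1.16 ± 0.41 (0.0211), RNASE2 at 0.88 ± 0.23 (0.00328) and SRGN at 0.63 ± 0.21 (0.0169). CFD (0.20 ± 0.20), LYZ (0.15 ± 0.21), RNASE3 (−0.46 ± 0.54) and MPO (−0.77 ± 0.48) did not pass, at adjusted p from 0.187 to 0.574. Leaving out 1 library at a time gave 1.43 to 3.25 for PRTN3, 0.86 to 2.09 for ELANE and 0.64 to 1.82 for AZU1, each called every time (edgeR). The CTSG call was lost without THP1 3R, where the difference was −0.24, without MOLM13 3R (0.66), with DESeq2 (adjusted p = 0.181) and with limma-voom (0.0654). The RNASE2 call was lost without THP1 3R (0.29), without MOLM13 3R (0.19) and with DESeq2 (adjusted p = 0.271), and the SRGN call without MOLM13 3R (0.50). The p-values measure the spread between libraries of a line, which may be partly technical.

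Other genes of the granule system were read from 13 further lists. The MLL-AF9 fit called 0.561% of all genes, so 0 calls in lists this short is near that share. Of 10 further primary granule genes, DEFA1, DEFA1B and DEFA3 (neutrophil alpha defensins) had 0 counts in all 4 MLL-AF9 libraries, and DEFA4 had 2 counts in THP1 Y518R, 31 in THP1 3R and 0 in MOLM13. BPI, the bactericidal protein that binds endotoxin, had 48 counts in THP1 Y518R and 5 in THP1 3R, the opposite direction to the proteases, against 239 and 211 in MOLM13 (Y518R and 3R). PRSS57, a serine protease of the same granules named here after its values were seen, divided the lines: it was at 0.325 CPM in THP1 Y518R and 0.905 CPM in THP1 3R, but at 353 CPM in MOLM13 Y518R, 304 CPM in MOLM13 3R, 138 CPM in RS4-11 Y518R and 134 CPM in RS4-11 3R. In the MLL-AF9 fit 0 of the 6 tested genes of this list were called (3 above 0, median 0.08). The list of specific and gelatinase granule genes had 0 of 8 called (2 above 0, median −0.18). CHI3L1, a chitinase-like glycoprotein of specific granules, carried most of its counts, at 2303 CPM in THP1 Y518R, 2924 CPM in THP1 3R, 160 CPM in MOLM13 Y518R and 256 CPM in MOLM13 3R (log2 change −0.51 ± 0.14, edgeR adjusted p = 0.122).

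Genes that mature, carry or restrain the proteases gave no calls in the MLL-AF9 fit, near the 0.561% called over all genes. Of 10 genes of protease maturation and granule traffic 0 were called (3 above 0, median −0.01). CTSC, the dipeptidyl peptidase that removes the activation dipeptide of granule serine proteases, was at 247 CPM in THP1 Y518R, 275 CPM in THP1 3R, 285 CPM in MOLM13 Y518R and 242 CPM in MOLM13 3R (0.04 ± 0.11). NBEAL2 had the lowest p of the list (−0.36 ± 0.14, edgeR adjusted p = 0.357). Of 8 tested inhibitors of granule proteases 0 were called (4 above 0, median 0.10). In THP1 the broad protease inhibitor A2M was at 23.2 CPM with Y518R and 2.81 CPM with 3R, while SLPI, a secreted inhibitor of elastase and cathepsin G, was at 54.9 and 90.8 CPM in the same order.

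Regulators of granulocyte development were expressed in both lines. In the MLL-AF9 fit 0 of 12 were called (4 above 0, median −0.13), against 0.561% of all genes. CEBPA, the C/EBP factor of early granulopoiesis, was at 574 CPM in THP1 Y518R, 549 CPM in THP1 3R, 953 CPM in MOLM13 Y518R and 757 CPM in MOLM13 3R (0.20 ± 0.12, edgeR adjusted p = 0.652). CEBPB was at 43.3 CPM in THP1 Y518R, 65.6 CPM in THP1 3R, 135 CPM in MOLM13 Y518R and 161 CPM in MOLM13 3R (−0.43 ± 0.15, adjusted p = 0.297). SPI1, which encodes PU.1, had a log2 ratio of −0.34 in THP1 and 0.10 in MOLM13, and MYB had −0.39 and 0.02, both named after their values were seen. Of the 10 regulators at a geometric mean of 10 CPM or more in each line, 0 were at least 2-fold different in THP1 or in MOLM13.

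Monocyte and macrophage markers also differed between the peptides in THP1. Of 13 at a geometric mean of 10 CPM or more, 9 were above 0 and 3 at least 2-fold higher with Y518R (CYBB, GPNMB and ITGAM), against 1.63% of all genes, and MNDA was at least 2-fold lower, against 0.611%. ITGAM, the integrin CD11b, was at 56.3 CPM in THP1 Y518R and 10.9 CPM in THP1 3R, and CD14, the endotoxin co-receptor, at 17.4 and 4.27 CPM. CYBB, the NADPH oxidase subunit, was at 91.0 and 22.9 CPM and the scavenger receptor CD163 at 10.1 and 0.936 CPM, again Y518R before 3R. CD14 and CD163, both below the limit on the geometric mean, were named after their values were seen. Markers lower with Y518R, named for their direction, were MNDA (69.6 and 161 CPM), S100A8 (26.4 and 37.5 CPM), S100A9 (91.9 and 94.5 CPM) and ITGAX (60.3 and 64.2 CPM). The summed level of the 18 markers was 1720 CPM in THP1 Y518R, 1343 CPM in THP1 3R, 524 CPM in MOLM13 Y518R and 455 CPM in MOLM13 3R. Over both lines edgeR called 2 of 16 tested markers, against 0.561% of all genes. GPNMB, a macrophage glycoprotein, was higher (1.38 ± 0.26, edgeR adjusted p = 0.0153). MNDA, the myeloid nuclear differentiation antigen, was lower (−1.08 ± 0.21, edgeR adjusted p = 0.0174). In MOLM13 8 of 10 markers at a geometric mean of 10 CPM or more were above 0, with a median log2 ratio of 0.11, and 0 were at least 2-fold different. CD68 was at 130 CPM with Y518R and 88.9 CPM with 3R there, ITGAM at 39.6 CPM with Y518R and 36.8 CPM with 3R, and CD14 at 1.94 and 1.52 CPM. FCN1 and MRC1 were at 4 counts or fewer in all 4 libraries. The part of these markers in the granule gene values was not tested.

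CFD was read beside the other genes of the alternative complement pathway. In the MLL-AF9 fit 0 of 7 tested were called (5 above 0, median 0.57), against 0.561% of all genes. In THP1 C3, the central component, was at 37.5 CPM with Y518R and 17.1 CPM with 3R, and CFP, properdin, which stabilises the convertase, at 77.1 and 26.5 CPM. CFD itself was lower in that line. CFB, the substrate of factor D, named after its values were seen, had 5 to 14 counts in the 4 libraries. Of the cytotoxic granule genes, which include the granzymes, relatives of cathepsin G, 0 of 5 were called. Of the eosinophil granule genes 0 of 2 were called, and EPX had 0 counts in THP1 Y518R, 10 in THP1 3R, 39 in MOLM13 Y518R and 98 in MOLM13 3R. Neutrophil surface markers gave 0 of 7 called, with the G-CSF receptor CSF3R at 121 CPM in THP1 Y518R, 149 CPM in THP1 3R, 82.3 CPM in MOLM13 Y518R and 96.0 CPM in MOLM13 3R. The B cell, T cell and erythroid lists gave 0 of 8 each.

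Patterns most like those of the granule genes were found by Pearson correlation of log2 CPM over the 16 libraries. These values describe the gap between the 4 MLL-AF9 libraries and the rest, since libraries of a line share that line. Rank correlations were lower for every gene of like pattern named below, such as 0.553 for TMEM105 with ELANE. The mean pattern of the 10 genes was matched best by FCGR1B (r = 0.990), CES1 (0.989), OLIG2 (0.987), CSF3R (0.986) and RET (0.986). S100A8 was closest to RNASE2 (0.993) and OLIG2 to AZU1 (0.992). TMEM105 (0.990) and S100A9 (0.989) were closest to ELANE, LPHN3 to PRTN3 (0.983) and GABRA4 to MPO (0.985). The genes also seen outside the MLL-AF9 lines had other neighbours: SLC35A1 for CTSG (0.971), SEMA6B for CFD (0.966), ARF1 for LYZ (0.970) and EFCAB2 for SRGN (0.934). Among the 10 genes, PRTN3, ELANE, AZU1 and RNASE2 had pairwise r of 0.977 to 0.990, while CFD and SRGN correlated least (0.613).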

How the data were processed

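Polyadenylated RNA was sequenced from 16 libraries, 1 for each of 2 peptides in each of 8 cell lines. Each deposited table lists, for every gene symbol, the raw count of reads that the authors assigned to it. Per the submitters' processing notes the tools included HTSeq 0.6.1 and TopHat2 2.1.1, CASAVA 1.8.4 and DESeq and DESeq2 3.0, and both GRCh38 and hg19 are named there, without a step for each. The build and strand setting behind these counts are not stated in the sources used here, and the promoter coordinates belong to RefSeq alone. The 5 entries that name no gene stayed out of library sizes and tests.

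The test was edgeR 4.0.16 under R 4.3.3 (quasi-likelihood, TMM, filterByExpr at a minimum count of 10 by the design, 16586 genes, Benjamini-Hochberg adjustment). Cell line was the block. The pairing comes from the labels, and the deviation of a library from its peptide's mean correlated at 0.929 to 0.969 between libraries of a line and at most 0.357 between lines. Each SE was taken as the size of the log2 change over the root of F. Log2 ratios within a line use a prior count of 2. Counting intervals are exact 95% intervals of the ratio of 2 counts. The limit of 10 CPM on the geometric mean of a line's libraries, behind the shares of 2-fold ratios, was chosen after seeing the data. Genes outside the 10 were named by the lowest p in each list (up to 4) or as said where they appear. Genes at 0 or few counts, such as DEFA1 and FCGR3B, and markers that describe the lines were named for their counts or levels. Genes of like pattern were named by the highest r (3 for each gene and 5 for the mean). Alternatives were limma 3.58.1 (voom), DESeq2 1.42.0, other scalings, filters and prior counts, no block, and leaving out lines or libraries. The 10 genes and the lists were chosen with earlier results of these data known. Nothing in the labels says that libraries of a line were separate cultures, so the p-values rest on a spread among libraries that may in part be technical. Exon lengths are from GENCODE 29.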

Additional observations from a re-analysis of the deposited data

Results flagged for a closer look

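The peptide ratio pointed opposite ways in the 2 MLL-AF9 lines for 7 genes whose counting intervals, with TMM scaling, excluded 1 in both. The log2 ratio of Y518R over 3R, as THP1 minus MOLM13, was −2.53 for CTSG, −1.95 for PRTN3, −1.44 for ELANE, −1.43 for AZU1, −1.42 for RNASE2, −0.96 for CFD and −0.63 for LYZ. Each line had 1 library per peptide, and the difference was not tested.

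RAJI stood apart from the 7 other lines for SRGN, with a log2 ratio of −1.27 (the gap to the nearest line was 0.562 of the whole range, above the critical value of 0.526). It also stood apart for LYZ, with a log2 ratio of −2.87 on 2 counts with Y518R and 23 with 3R (0.5999 of the range). For values of equal spread, chance gives such a flag in about 1 of 20 groups. Counts differed widely between lines, up to 15997 with Y518R and 23955 with 3R for LYZ in THP1, so that rate may not hold here. Reads given to no gene made up 23.4% of RAJI Y518R and 44.7% of RAJI 3R, and the part of this in both values was not tested.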

How the results depend on the processing

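In the MLL-AF9 lines the direction depended on the line. The change without MOLM13 and without THP1 was −2.26 and 0.27 for CTSG, −1.68 and 0.27 for PRTN3, −1.18 and 0.25 for RNASE2, −1.01 and 0.43 for AZU1, −0.91 and 0.085 for RNASE3, −0.78 and 0.66 for ELANE, −0.53 and 0.11 for LYZ and −0.35 and 0.62 for CFD. Over all 8 lines the same pair of values was −1.24 and 0.10 for PRTN3, −0.75 and 0.047 for AZU1, −0.71 and 0.080 for RNASE3, −0.69 and 0.077 for CTSG, −0.53 and 0.43 for ELANE and −0.065 and 0.20 for CFD. Between THP1 and MOLM13, leaving out 1 library at a time gave −0.12 to 0.56 for CFD, −0.24 to 2.1 for CTSG, −0.11 to 0.39 for LYZ and −0.97 to 0.021 for RNASE3. The causes were not tested.

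Leaving out 1 line at a time, edgeR called 0 to 5 of the 10 genes in the MLL-AF9 lines (42 to 737 of all genes), 0 to 2 in the difference from the 6 other lines (8 to 580), 0 to 1 in the 4 MLL-fusion lines (0 to 9), and 0 in the other peptide comparisons (0 to 3 genes for the MLL difference, 0 to 2 without a fusion, 0 to 1 for 6 and for 8 lines). Leaving out 1 library at a time, it called 3 to 7 of the 10 between THP1 and MOLM13 (8128 to 8667 genes).

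The upper ends above for the MLL-AF9 lines, and for their difference from the 6 other lines, came from the fit without MOLM13. There the MLL-AF9 lines were 1 THP1 library per peptide, so those calls are not results over lines. With 1 of the 6 other lines left out instead, edgeR called 42 to 134 of all genes in the MLL-AF9 lines. In that difference it called 8 to 50, and 0 of the 10 genes were called in either. Counts of all genes moved with other settings. With no filter, edgeR called 282 in the MLL-AF9 lines (2 of the 10 genes), 172 in their difference from the 6 other lines, 52 in MLL-fusion lines, 9 in the MLL difference and 3 over 8 lines. A filter by peptide, chosen after seeing the data, kept 13043 genes and dropped MPO, RNASE2 and RNASE3. It gave 31 in the MLL-AF9 lines, 11 in that difference, 0 over 8 lines and 0 over 6. DESeq2 gave an adjusted p for 11119 genes in the MLL-AF9 lines, not including MPO and RNASE3, and for 11762 in their difference. It called 193 in the MLL-AF9 lines, 87 in their difference, 4 in MLL-fusion lines, 1 in the MLL difference, and 0 without a fusion and over 6 lines. Limma-voom gave 182 (1 of the 10 genes), 32, 26 and 1 in the same 4 comparisons, 11 over 8 lines and 0 over 6. With no replicate block the count was 0 in each peptide comparison of lines with or without MLL-AF9, without a fusion and over 8 lines. Between THP1 and MOLM13, limma-voom also called MPO (−0.77). Of the ratios within lines, 224 of 236 recomputed values moved by less than their counting interval. The 12 others were all in MOLM13 and THP1, with CPM taken from library totals. In MOLM13 the log2 ratio was then 0.19 for CTSG and 0.03 for LYZ, against 0.27 and 0.11 with TMM scaling. With 1 library per peptide and line, replicate error within a line is unknown, and genes under about 50 counts (most of the 10 outside THP1 and MOLM13) are limited by depth.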

Other observations

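In lines where a gene was under 5 CPM, PRTN3, ELANE, AZU1, CTSG and RNASE2 were low but never at 0. Their counts there were 2 to 33 for PRTN3, 3 to 20 for ELANE, 8 to 50 for AZU1, 10 to 32 for CTSG and 1 to 11 for RNASE2. As a median this was 0.0197%, 0.0259%, 0.0281%, 0.0246% and 0.0187% of each gene's highest library, in the same order of genes. Abundant genes of other lines had similar values outside their own line: 0.0229% for HBG2 and 0.0353% for HBG1, the fetal globins of K562, 0.0295% for the T cell receptor component CD3D of JURKAT, and 0.0327% for MS4A1, the B cell gene that encodes CD20. CD3E of JURKAT differed, with a median of 0.0393%, a highest value of 0.856% and 1 library at 0. Of 42 listed genes at 300 CPM or more in their highest library, 35 had no library at 0. Some of these were expressed in every line, such as CD63, with a lowest count of 950. GATA1 and HBZ, both highest in K562, were at 0 in 4 and 2 libraries. Not all of the 10 granule genes were free of 0. CFD was at 0 in RAJI Y518R, and MPO and RNASE3 were at 0 in most libraries outside THP1 and MOLM13, while LYZ had a lowest count of 2. A common source of these low counts was not tested.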
